A study of Mus musculus with 2 samples.

Results

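The cells described here are non-cycling epithelial cells of mouse colon tumours in which Pnliprp2, the gene for pancreatic lipase-related protein 2, was read at least 5 times per cell. They were chosen by their own RNA: a barcode with at least 5000 unique molecular identifiers (UMIs, counted RNA molecules) and at most 25% mitochondrial UMIs, at least 1 Epcam UMI, at least 5 Pnliprp2 UMIs, fewer than 3 Notum and fewer than 10 Cadps UMIs, and under 0.03% of UMIs on Top2a, Mki67, Birc5 and Ube2c together. The rule found 159 members among 9280 non-cycling epithelial barcodes and 11166 barcodes of that depth in all, with 103 members in 1 library and 56 in the other. Pnliprp2, Notum, Cadps, Epcam and the cycling genes were used by the rule, so their levels are no finding. The cells were picked on the same RNA as every other gene, so each difference between members and other cells below is a description and carries no test.

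The tumours came from mice given azoxymethane, a carcinogen, and dextran sulfate sodium, which injures the colon lining. Tumours were digested to single cells and sequenced as 10x Genomics 3′ libraries, 1 from Gsk3b (IEC+/+) mice and 1 from Gsk3b (IEC-/-) mice, in which Gsk3b is lost from intestinal epithelial cells. They are called the WT and the KO library here. The number of animals, the Cre driver and the deleted exon are not given in the sources used here. With 1 library per genotype, genotype, library and animal cannot be told apart, no p-value can be given, and all 95% intervals below are exact and cover counting error only.

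The libraries held 164574326 UMIs (WT) and 156641780 UMIs (KO) over 32285 genes. Members had a median of 18370 UMIs in the WT library and 17924 in the KO library, near the medians of the other non-cycling epithelial cells (19064 and 18854.5), and a median of 3.06% and 3.36% mitochondrial UMIs. The libraries shared 6 barcodes of at least 5000 UMIs, and no member barcode was a member in both. Gsk3b RNA was not lower in the KO members, at 263 CPM (UMIs of the gene per 1000000 UMIs of the cells) in WT and 315 CPM in KO of the 125 members kept in most comparisons below. The 3′ reads may lie outside the deleted part of the gene, so this level checks nothing about the labels.

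Pnliprp2 and its neighbour Pnliprp1 belong to the pancreatic lipase family, best known from the acinar cells of the pancreas. Pancreatic lipase itself splits dietary fats, and no lipase activity was measured here. Ptn encodes pleiotrophin, a secreted heparin-binding growth factor, and Mt3 a metallothionein, a small protein that binds zinc and copper. Apcdd1 encodes a membrane protein that dampens Wnt signalling, and Notum a secreted enzyme that inactivates Wnt ligands; both are known as targets and brakes of the pathway. In colon epithelium Wnt signalling keeps crypt stem cells dividing, and GSK3B is a kinase of the complex that marks beta-catenin, the carrier of that signal, for destruction.

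The name of these cells held for only some members. Ptn, Apcdd1 and Mt3 were found together in 62 of the 103 WT members (60.2%, 50.1 to 69.7) and in 24 of the 56 KO members (42.9%, 29.7 to 56.8). The share of a member's UMIs on Lyz1, the lysozyme of Paneth cells, split them with no cell in between. In 14 WT members Lyz1 took 1.91% to 16.6% of UMIs (median 5.11%) and in 12 KO members 4.35% to 17.9% (median 8.41%), while it was at most 0.192% in every other WT member and 0.0542% in every other KO member. These Lyz1-high cells were 13.6% (7.63 to 21.8) of WT members and 21.4% (11.6 to 34.4) of KO members, against 2.38% and 2.51% of the other non-cycling epithelial cells. They held few of the naming genes: a UMI each of Ptn, Apcdd1 and Mt3 was found together in 3 of 14 WT and 0 of 12 KO Lyz1-high cells, with an exact upper bound of 26.5% in the latter. They are therefore described apart.

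**Figure D1:**
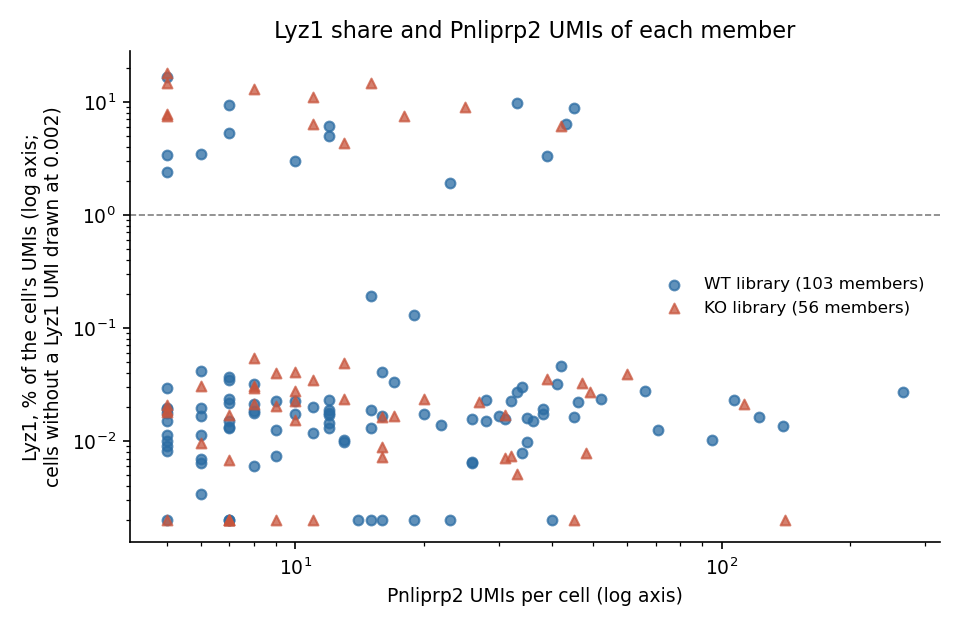
Each point is 1 of the 159 members, with its Pnliprp2 UMIs (log axis) against the share of its UMIs on Lyz1 (log axis, %); circles are the WT and triangles the KO library, and the dashed line is a limit of 1%. The 14 WT and 12 KO members above the line stand clear of the others at any number of Pnliprp2 UMIs.

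A further 4 WT and 4 KO members had 0.5% or more of their UMIs on immune, fibroblast and endothelial marker genes. Leaving out both kinds gave 85 WT and 40 KO members, called Lyz1-low members below, and the same limits gave 3425 WT and 3395 KO other non-cycling epithelial cells as their comparison. Both limits were set after the data were seen. The median Lyz1-low member had 17651 UMIs in WT and 16450 in KO, fewer than the 21831 and 20560 of the comparison cells. Epithelial markers summed to 13639 and 14158 CPM in these members and to 14210 and 15265 CPM in the comparison cells. The 15 immune markers summed to 1084 and 809 CPM in them against 914 and 785 CPM, with 1 of 15 at 0 in each library. Fibroblast markers (9 genes) summed to 5.78 and 20.6 CPM and endothelial markers (8 genes) to 19.1 and 19.3 CPM. No doublet caller was run, and the part of other cells' RNA in the results was not tested.

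The naming genes that the rule did not read were also counted in these 125 cells. The name was given with earlier results of these data known, so this describes the cells and does not test the name. Ptn, Apcdd1 and Mt3 were all found in 57 of 85 WT cells (67.1%, 56.0 to 76.9) and in 23 of 40 KO cells (57.5%, 40.9 to 73.0). The same 3 genes were found together in 9.92% of 1169 WT and 4.32% of 1457 KO cells with low Notum and Cadps and no Pnliprp2 UMI, at median depths of 17409 and 18500 UMIs. Wdr49, a gene of a WD-repeat protein that also stands in the name, was found in 14 of 85 WT and 5 of 40 KO Lyz1-low members, so it does not mark most of them.

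Pnliprp2 and Pnliprp1 lie next to each other on chromosome 19 and on the same strand, at chr19:58759719-58777534 and chr19:58728887-58744169 (mm10), beyond Pnlip, the gene of the classical pancreatic lipase, at chr19:58652498-58681788. Ptn lies on chromosome 6 (chr6:36714929-36810220), Mt3 on chromosome 8 (chr8:94152607-94154146) and Spock2, a gene of a secreted proteoglycan high in the same cells, on chromosome 10 (chr10:60106219-60135198). The 250 bases before the RefSeq start of the lipase pair and of Spock2 are printed because the lipases were high together and because Spock2 alone of the genes named as higher has a TCF/LEF-type motif in this window. RefSeq starts can differ from the gene starts above: the windows of Pnliprp2 and Spock2 reach past those. Sequences are RefSeq's on GRCm38.p6, on the gene's strand, 5′ to 3′, at chr19:58759473-58759722, chr19:58728637-58728886 and chr10:60106007-60106256. Capitals mark a match to CTTTGAA, or to that run with its last letters as TT, AT or TA, searched on both strands.
Pnliprp2: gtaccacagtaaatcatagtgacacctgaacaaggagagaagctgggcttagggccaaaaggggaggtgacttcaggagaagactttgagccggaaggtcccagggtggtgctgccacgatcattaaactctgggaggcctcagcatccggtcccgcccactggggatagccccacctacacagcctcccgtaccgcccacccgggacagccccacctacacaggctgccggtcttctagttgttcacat
Pnliprp1: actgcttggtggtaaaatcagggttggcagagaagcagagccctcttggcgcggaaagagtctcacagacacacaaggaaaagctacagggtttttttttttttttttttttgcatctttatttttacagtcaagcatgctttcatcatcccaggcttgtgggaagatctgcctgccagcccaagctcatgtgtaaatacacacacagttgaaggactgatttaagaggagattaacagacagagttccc
Spock2: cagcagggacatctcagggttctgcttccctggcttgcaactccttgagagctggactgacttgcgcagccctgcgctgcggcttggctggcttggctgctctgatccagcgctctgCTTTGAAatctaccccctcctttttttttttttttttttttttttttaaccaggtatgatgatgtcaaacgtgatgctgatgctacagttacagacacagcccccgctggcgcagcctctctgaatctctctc
Neither lipase window held these letters, and the match in Spock2 begins 133 bases before its RefSeq start. Of the 15 genes named below as higher, 13 had a RefSeq window and 1 of these held a match. Of the 12 named as lower, all 12 had a window and 1 held a match, Mcpt1. Among 32851 windows of this length 4874 (14.8%) held a match. A match is a run of letters and not a binding site, and its absence says nothing of the factors.

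Both lipase genes were high in Lyz1-low members. The lowest, median and highest number of Pnliprp2 UMIs per cell was 5, 13 and 266 in WT and 5, 10.5 and 141 in KO, as the rule required at least 5. Pnliprp1, which the rule did not read, had 0, 6 and 74 UMIs in WT, with a UMI in 80 of 85 cells, and 0, 8.5 and 106 in KO, with a UMI in 38 of 40. The level of Pnliprp1 was 535 CPM in WT members and 118 CPM in the comparison cells, a log2 ratio of 2.18 (2.08 to 2.28). In KO it was 634 and 108 CPM, a log2 ratio of 2.56 (2.43 to 2.69). The genes are near relatives, and no source used here states how reads that match both were counted. Pnlip had 0 UMIs in the members of both libraries, and of a list of 13 pancreatic acinar genes only Pnliprp1 and Cela1, an elastase gene, were measured well enough to compare; Cela1 had log2 ratios of -0.19 and -0.29. The other genes of pancreatic acinar cells were thus at or near 0 in these cells.

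The naming genes other than Wdr49 were higher in the Lyz1-low members of both libraries, with many cells holding them. Ptn had 0, 17 and 85 UMIs per cell (lowest, median, highest) in WT and 0, 5 and 80 in KO, with a UMI in 74 of 85 and 29 of 40 cells. Its level was 987 against 447 CPM in WT, a log2 ratio of 1.14 (1.07 to 1.21), and 605 against 189 CPM in KO, 1.68 (1.54 to 1.81). Mt3 had 0, 12 and 65 UMIs in WT and 0, 15.5 and 53 in KO, in 83 of 85 and 37 of 40 cells. Its level was 762 against 379 CPM in WT, 1.01 (0.93 to 1.09), and 992 against 290 CPM in KO, 1.77 (1.67 to 1.88). Apcdd1 was a low gene, with medians of 2 UMIs in both libraries and highest cells of 16 and 28. It stood at 176 against 86.4 CPM in WT, 1.02 (0.85 to 1.19), and at 169 against 46.7 CPM in KO, 1.85 (1.59 to 2.10). The ranges of single cells overlapped widely for each gene, since some members had none of its UMIs.

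Wdr49 rested largely on 1 cell in each library. It was 43.9 against 17.4 CPM in WT, a log2 ratio of 1.33 (0.98 to 1.67), with 51.3% of its UMIs in 1 of the 85 cells and a level of 21.5 CPM without that cell. In KO it was 11.6 against 9.78 CPM, 0.24 (-0.89 to 1.18), from 9 UMIs, 55.6% of them in 1 cell.

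Free RNA may add to these levels. Its make-up, which is not its level in a cell, was read from empty droplets. In empty droplets (barcodes under 100 UMIs) Ptn was at 271 CPM in WT and 112 CPM in KO, Mt3 at 304 and 266 CPM, Apcdd1 at 44.1 and 28.8 CPM, and Pnliprp1 at 81.2 and 86.3 CPM. From immunoglobulin UMIs, the median Lyz1-low member was estimated to hold 10.1% (WT) and 10.3% (KO) free RNA. In barcodes with Ptprc and no Epcam, which should lack these genes, Ptn was at 26.5 and 10.99 CPM and Mt3 at 33.5 and 24.4 CPM. A Pnliprp2 UMI was found in 14.9% of 308 such WT barcodes and 11.4% of 167 KO barcodes, at median depths of 6830.5 and 6949 UMIs, against 46.5% and 40.3% of non-cycling epithelial cells. None of them held 5, which at 3 counts of the total allows shares of up to 0.974% and 1.80%. These barcodes were shallower than the members, so they do not show what free RNA gives in a deep cell. A share with 1 UMI is therefore not read as expression.

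Most cells with 5 or more Pnliprp2 UMIs were not members, because they held Notum. Of 441 such non-cycling cells in WT and 363 in KO, 331 (75.1%) and 300 (82.6%) had at least 3 Notum UMIs, at median depths of 26806 and 23578.5 UMIs. Lyz1-low members often held the highest Notum count that the rule allows: 49 of 85 WT cells (57.6%, 46.4 to 68.3) and 18 of 40 KO cells (45%, 29.3 to 61.5) had 2 Notum UMIs. Among cells with low Notum and no Pnliprp2 UMI, 13.8% (WT) and 9.61% (KO) had 2. Levels did not follow the Notum count in 1 direction. For members with 0, 1 and 2 Notum UMIs, Ptn was 1079, 1030 and 945 CPM in WT and 845, 341 and 682 CPM in KO, and Mt3 was 647, 624 and 846 CPM in WT and 1239, 488 and 1231 CPM in KO.

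Set beside the 251 WT and 266 KO cells with at least 3 Notum and at least 5 Pnliprp2 UMIs, under the same limits on Lyz1 and other lineages, the members were alike or lower in their naming genes. Ptn was at 1155 CPM (WT) and 797 CPM (KO) in these Notum cells, so that members stood at log2 ratios of -0.23 (-0.30 to -0.15) and -0.40 (-0.54 to -0.26). Mt3 was at 1354 and 1185 CPM there, with member log2 ratios of -0.83 (-0.91 to -0.75) and -0.26 (-0.36 to -0.15). Apcdd1 was at 255 and 156 CPM, with -0.54 (-0.72 to -0.37) in WT and 0.11 (-0.16 to 0.37) in KO. Pnliprp1 was at 657 and 634 CPM, with -0.29 (-0.40 to -0.19) and 0.00 (-0.14 to 0.13). Over all genes with a mean of at least 10 CPM, 115 of 8490 (1.35%) were at least 1.5-fold higher and 68 (0.801%) at least 1.5-fold lower in the members in both libraries. Lcn2, which encodes an iron-capturing antibacterial protein, was among the higher, at log2 ratios of 1.04 (0.95 to 1.12) and 0.68 (0.49 to 0.87). Without 1 KO cell that held 36.5% of its UMIs, Lcn2 in KO members was at 227 CPM against 214 CPM in the Notum cells, short of 1.5-fold.

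Cells with Notum but no Pnliprp2 had lower levels. In 360 WT and 426 KO cells with at least 3 Notum UMIs and no Pnliprp2 UMI, Ptn was at 423 and 209 CPM, Mt3 at 337 and 330 CPM, Apcdd1 at 77.4 and 62.7 CPM and Pnliprp1 at 60.9 and 73.5 CPM, below both groups that held Pnliprp2. Ptn, Apcdd1 and Mt3 were found together in 36.9% and 27.5% of these, against 78.5% and 59.8% of the Notum cells with Pnliprp2. Cells with at least 10 Cadps UMIs and low Notum (125 WT, 20 KO) held Ptn at 640 and 1188 CPM and Pnliprp2 at 96.6 and 664 CPM. Single cells weighed on these levels. Without the cell richest in each gene, Ptn was at 610 and 818 CPM and Pnliprp2 at 56.5 and 523 CPM.

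**Figure D2:**
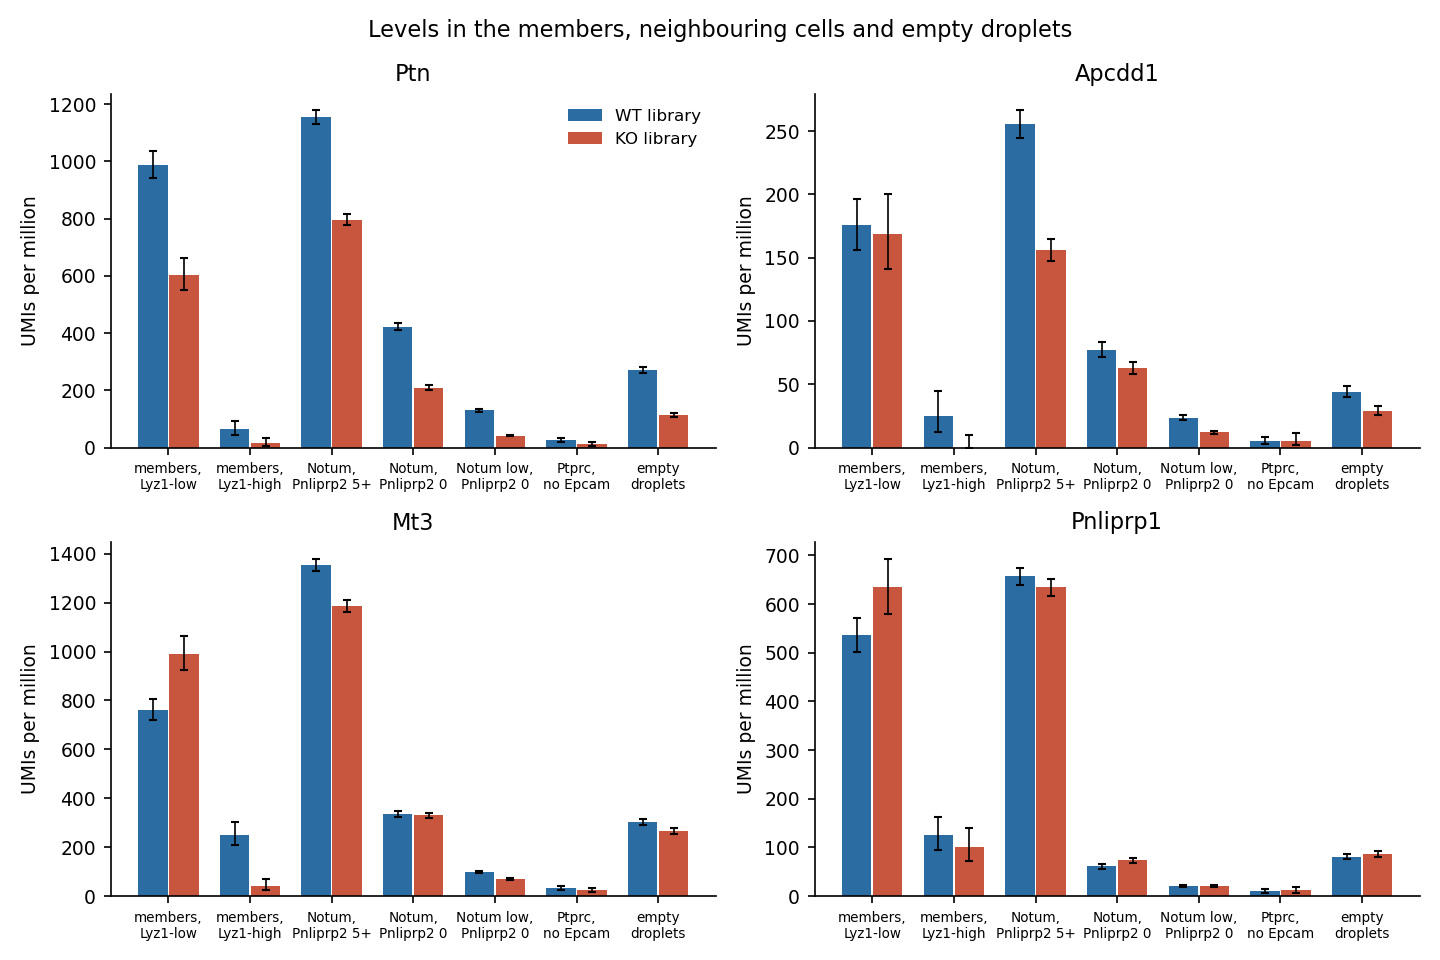
Levels (CPM, linear axis from 0) of Ptn, Apcdd1, Mt3 and Pnliprp1 in the members, neighbouring cells and empty droplets; bars are the summed level of each library and error bars exact 95% Poisson intervals. Of the groups drawn, which leave out the Cadps cells, both with at least 5 Pnliprp2 UMIs and low Lyz1 stand highest in each panel, while Lyz1-high members hold little Ptn, Apcdd1 and Mt3 in KO.

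The class is a range cut at 5 UMIs, so levels were followed along the Pnliprp2 count in cells with low Notum, Cadps, Lyz1 and other-lineage UMIs. For 0, 1 to 2, 3 to 4, 5 to 9, 10 to 19 and 20 or more Pnliprp2 UMIs there were 1169, 714, 71, 32, 22 and 31 WT cells and 1457, 675, 45, 17, 10 and 13 KO cells. Ptn stood at 130, 171, 215, 772, 787 and 1411 CPM in WT, in that order. In KO it stood at 42.1, 35.1, 121, 277, 337 and 1487 CPM. The highest level was thus in the cells richest in Pnliprp2 in both libraries.

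Mt3 stood at 98.6, 115, 212, 570, 679 and 1055 CPM in WT and at 70.0, 72.4, 322, 582, 915 and 1882 CPM in KO. Pnliprp1 stood at 20.6, 31.8, 102, 346, 521 and 764 CPM in WT and at 20.9, 28.7, 123, 325, 482 and 1383 CPM in KO. Both genes were higher with each step from 1 to 2 UMIs up in both libraries. Krt17 stood at 258, 292, 559, 1463, 999 and 1355 CPM in WT and at 227, 199, 519, 502, 1077 and 1778 CPM in KO, so that in KO it was no higher at 5 to 9 than at 3 to 4 UMIs. Pigr, which encodes the receptor that carries IgA across the epithelium, ran the other way, at 511, 505, 474, 159, 122 and 80.7 CPM in WT and at 501, 516, 521, 78.3, 187 and 39.5 CPM in KO. Bins of 10 to 32 cells set these levels, the 5 to 9, 10 to 19 and upper KO bins under 20 cells each, and the cells share their library and its free RNA.

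Just outside and inside the limit, over all cells, 25 WT and 13 KO cells had 4 Pnliprp2 UMIs and 13 WT and 8 KO members had 5. Ptn was 195 CPM at 4 and 694 CPM at 5 UMIs in WT, and 168 and 10.2 CPM in KO. Mt3 was 223 and 443 CPM in WT and 213 and 143 CPM in KO. Lyz1-high cells were 5 and 2 of those at 4 UMIs and 3 and 4 of those at 5, so that they made up 4 of 8 KO members at the limit. Across Lyz1-low members (85 WT, 40 KO), Spearman's rho with the Pnliprp2 CPM was 0.57 and 0.53 for Pnliprp1, 0.39 and 0.61 for Ptn and 0.34 and 0.57 for Mt3, over cells that share a library, its free RNA and each cell's total. It was 0.33 and 0.32 for Apcdd1, 0.35 and 0.32 for Mdga2, 0.25 and 0.37 for Notum and 0.07 and 0.49 for Krt17. The rule read Pnliprp2, so these values describe the members and test nothing.

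**Figure D3:**
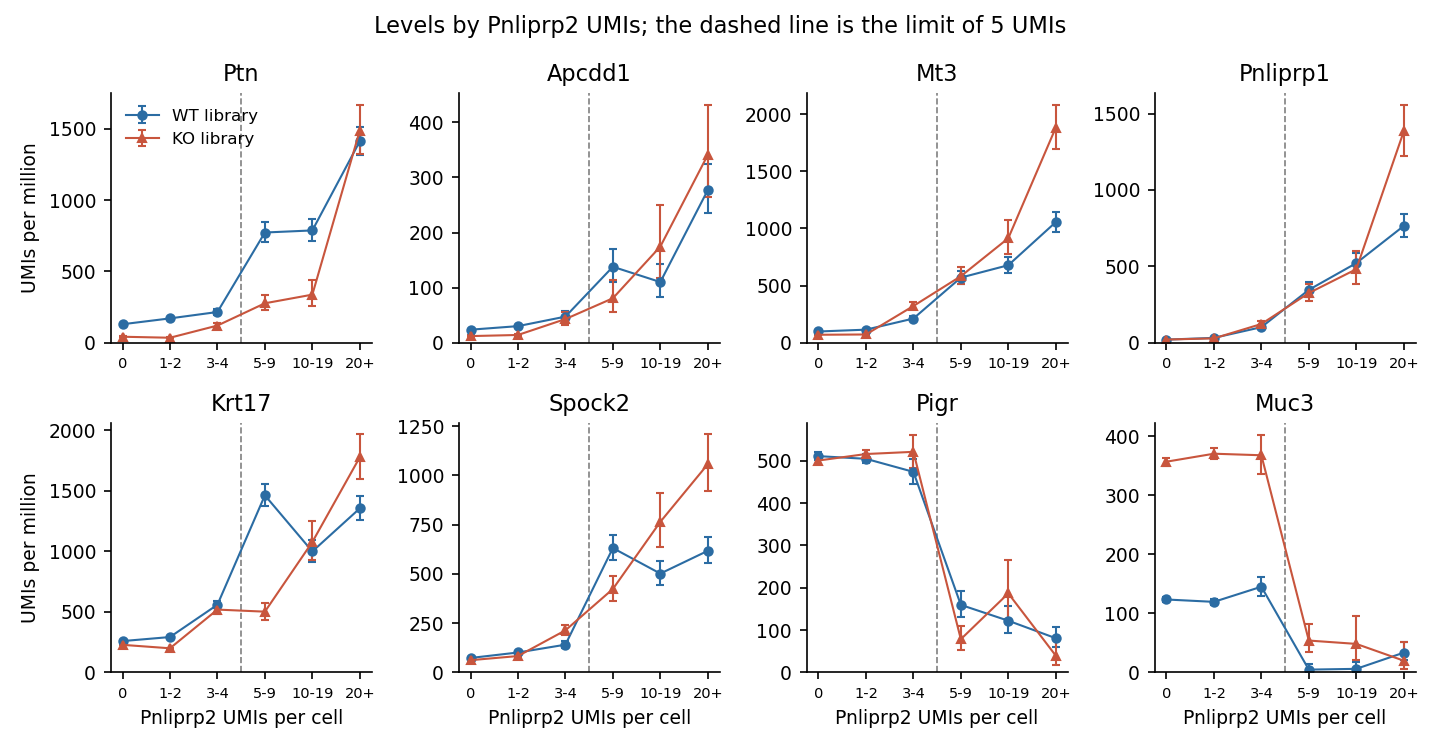
Levels (CPM) of 8 genes in cells with low Notum, Cadps, Lyz1 and other-lineage UMIs, by Pnliprp2 UMIs per cell; points are summed levels per library, error bars exact 95% Poisson intervals, and the dashed line is the limit of 5 UMIs. Ptn, Apcdd1, Mt3, Pnliprp1 and Spock2 stand higher and Pigr and Muc3 lower to the right of the line in both libraries, while Krt17 in KO is alike just left and right of it.

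Members were a smaller share of non-cycling epithelial cells in the KO library. They were 103 of 4808 (2.14%, 1.75 to 2.59) in WT and 56 of 4472 (1.25%, 0.947 to 1.62) in KO, a log2 ratio of shares of -0.77 (-1.27 to -0.29). Lyz1-low members were 1.77% (1.41 to 2.18) and 0.894% (0.640 to 1.22), a log2 ratio of -0.98 (-1.56 to -0.42). Lyz1-high members were 0.291% and 0.268%, -0.12 (-1.36 to 1.10). With the Pnliprp2 count of each cell thinned to a depth of 5000 UMIs and at least 2 asked for, the shares were 2.37% and 1.498%, -0.66 (-1.12 to -0.21). The Notum and Cadps limits stayed on the full counts, so their dependence on depth was not removed. This was 1 random draw, of 114 WT and 67 KO cells, and another gave 111 and 70. Without the limits on Notum and Cadps, cells with at least 5 Pnliprp2 UMIs were 9.17% of WT and 8.12% of KO cells, -0.18 (-0.38 to 0.03). With 1 library per genotype, whether genotypes differ in this share could not be tested.

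Across all genes, Lyz1-low members were at least 1.5-fold higher than the comparison cells for 264 of 8533 genes (3.09%) and at least 1.5-fold lower for 313 (3.67%) in both libraries, and 40 (0.469%) went opposite ways. In WT alone 6.56% of genes were higher and 8.42% lower, and in KO alone, with fewer cells, 10.7% and 9.42%. Called means past 1.5-fold and no more. The genes named next were the 15 highest and 12 lowest by the bound of their interval nearest to 0.

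The higher genes, beside the lipases and Ptn, were of several kinds. Spock2 was at 589 against 266 CPM in WT, 1.14 (1.05 to 1.24), and 661 against 280 CPM in KO, 1.24 (1.11 to 1.37), in 80 of 85 and 40 of 40 cells. Mdga2, a gene of a membrane-anchored adhesion protein, was at 936 against 382 CPM, 1.29 (1.22 to 1.37), and 749 against 329 CPM, 1.19 (1.07 to 1.31). Wnt6, a Wnt ligand, was at 204 against 94.8 CPM, 1.11 (0.95 to 1.26), and 220 against 76.9 CPM, 1.52 (1.29 to 1.74). Cxcl10, a chemokine that attracts T cells and is induced by interferon, was at 629 against 292 CPM, 1.11 (1.02 to 1.20), and 867 against 359 CPM, 1.27 (1.16 to 1.38).

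Slc16a10, an aromatic amino acid transporter, was at 185 against 81.6 CPM in WT and 280 against 68.3 CPM in KO, log2 ratios of 1.18 and 2.04. Stard5, a sterol-binding protein gene, stood at 1.29 and 1.33, Atp10a, a phospholipid flippase gene, at 1.15 and 1.65, and Lhpp, a phosphatase gene, at 1.27 and 1.63. Meis2, a homeobox transcription factor, was lower in level, at 56.6 and 66.9 CPM in members, with log2 ratios of 1.44 and 1.49, and Thsd7a stood at 1.47 and 1.55. Lcn2 was at 943 against 363 CPM in WT, 1.38 (1.31 to 1.45), and at 342 against 155 CPM in KO, 1.14 (0.96 to 1.32). In KO 36.5% of Lcn2 UMIs came from 1 cell, and its level without that cell was 227 CPM, short of 1.5-fold over the 155 CPM of the comparison cells. Car1, a carbonic anhydrase gene of surface colonocytes, met the rule as well (176 and 174 CPM) but had 93.1% and 87.4% of its UMIs in 1 cell of each library. Without that cell Car1 was at 13.1 and 23.01 CPM, below the comparison cells at 78.4 and 66.5 CPM.

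The lower genes included hormone, mucin, antibody transport and antibacterial genes. Pyy, a hormone gene of enteroendocrine cells, was at 9.24 against 97.7 CPM in WT, -3.40 (-4.21 to -2.70), and 24.4 against 182 CPM in KO, -2.90 (-3.63 to -2.25). The median comparison cell held 0 CPM of 10 enteroendocrine genes, Pyy among them, in both libraries. The highest held 150003 CPM in WT and 213496 CPM in KO. Muc3, a membrane mucin, was at 14.4 against 68.3 CPM, -2.24 (-2.87 to -1.68), and 43.7 against 234 CPM, -2.42 (-2.95 to -1.93). Pigr was at 122 against 333 CPM, -1.44 (-1.64 to -1.25), and 91.3 against 347 CPM, -1.93 (-2.28 to -1.59). When cells with 3 or 4 Pnliprp2 UMIs were counted as members, Muc3 turned to 0.40 in WT and 0.091 in KO and Pigr to 0.067 in KO. Reg3b, an antibacterial lectin, stood at -1.89 and -2.17, Cldn2, a pore-forming claudin of crypts, at -1.79 and -2.42, and Ckb, a creatine kinase gene, at -1.90 and -2.36.

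Oit1 was at 111 against 331 CPM in WT and 174 against 618 CPM in KO, log2 ratios of -1.57 and -1.83. Klk1, a kallikrein protease gene of goblet cells, stood at -1.65 and -3.48, Tspan1 at -1.38 and -1.45, Mcpt1, a mast cell protease gene, at -1.39 and -1.82, Hs3st1, a heparan sulfate sulfotransferase gene, at -1.68 and -2.10, and Fstl4 at -1.57 and -2.02. With at least 3 Pnliprp2 UMIs, Tspan1 turned to 0.10 in WT and 0.12 in KO and Klk1 to 0.17 in WT. Pigr had a UMI in 44 of 85 WT and 20 of 40 KO members and Tspan1 in 51 and 25. As above, such shares are not read as expression, so these genes may be low or absent in the members.

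**Figure D4:**
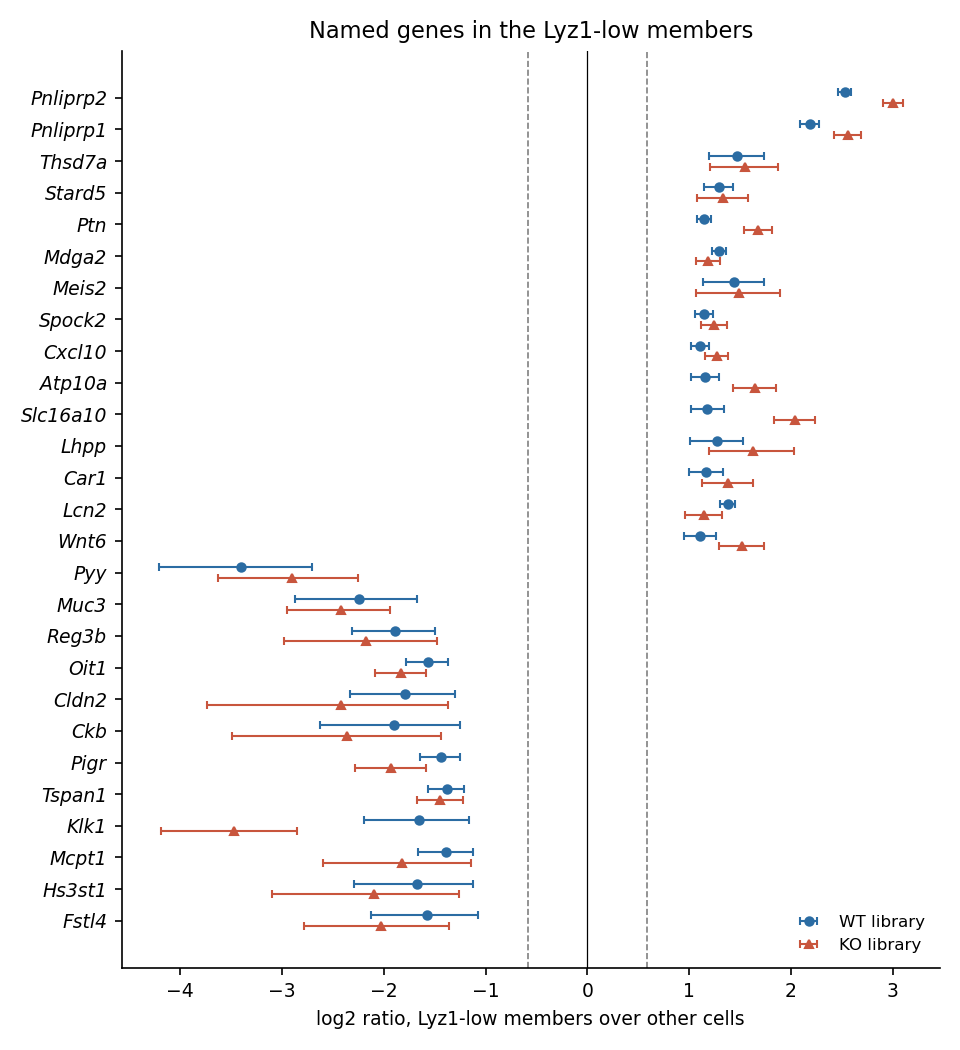
Log2 ratios of the 15 higher and 12 lower named genes in Lyz1-low members over the comparison cells; circles are WT, triangles KO, error bars exact 95% intervals of counting error, and dashed lines mark 1.5-fold. Each gene lies on the same side of 0 in both libraries, Pnliprp2 and Pnliprp1 farthest to the right and Pyy, or Klk1 in KO, farthest to the left.

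Genes of the Wnt pathway were looked at by role, from lists drawn up with earlier results of these data known. Of 20 feedback inhibitors, 11 were measured in WT and 12 in KO, and 5 were higher and 1, Notum by the rule, lower in each. Higher genes were 6.56% (WT) and 10.7% (KO) of all genes. The median log2 ratio was 0.58 and 0.57, against -0.02 and 0.04 over all genes. Dkk2, a secreted Wnt receptor antagonist, was at 250 against 120 CPM, 1.06, and at 170 against 81.8 CPM, 1.05. Nkd1, which acts on Dishevelled, was at 566 against 351 CPM, 0.69, and at 583 against 325 CPM, 0.84. Dkk3 stood at 0.72 and 1.85 at levels under 50 CPM. Wif1, a secreted Wnt binder, stood at 0.58 in both, at the edge of 1.5-fold, and Axin2, the scaffold of the destruction complex and a common Wnt readout, at 0.28 (0.08 to 0.48) and 0.55 (0.24 to 0.85), short of it. These feedback inhibitors were not higher in members than in the Notum cells with Pnliprp2. There 0 of 12 measured were higher in each library and 2 (WT) and 3 (KO) lower, with medians of -0.25 and -0.32. Notum was among the lower in each by the rule. Of all genes 3.99% (WT) and 7.34% (KO) were higher there and 4.09% and 8.28% lower.

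Of 27 Wnt ligands and receptors 11 and 10 were measured, with 4 and 3 higher and 1 lower in each, and medians of 0.27 and 0.42. Of all genes 6.56% were higher and 8.42% lower in WT, and 10.7% and 9.42% in KO. The ligands led, Wnt6 as above and Wnt10a at 0.84 and 1.28. Of 30 Wnt targets 23 were measured, with 2 higher and 3 lower in WT, where 6.56% and 8.42% of all genes were, 5 and 2 in KO, and medians of 0.20 and 0.01. Lef1, a transcription factor of the pathway, was at 126 against 83.8 CPM in WT and 127 against 56.6 CPM in KO, log2 ratios of 0.59 and 1.17. Of 15 destruction complex genes 14 were measured, 1 and 2 were higher and none lower, near the 6.56% and 10.7% higher over all genes, with medians of 0.17 and 0.29. Gsk3b stood at -0.03 (-0.16 to 0.11) and 0.38 (0.19 to 0.56), Gsk3a at 0.11 (-0.22 to 0.43) and -0.03 (-0.58 to 0.47), Ctnnb1 at 0.30 and 0.41 and Apc at 0.15 and 0.58. Against the Notum cells with Pnliprp2, 0 of 11 (WT) and 0 of 10 (KO) Wnt ligands and receptors were higher. In that comparison 1 and 0 were lower, with medians of -0.004 and 0.05, and 3.99% and 7.34% of all genes were higher.

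Of 16 stem cell genes 14 were measured, with medians of -0.02 and -0.24. In WT 0 were higher and 5 lower, where 6.56% and 8.42% of all genes were. In KO 1 was higher and 6 lower, where 10.7% and 9.42% of all genes were. Lgr5, the stem cell receptor for R-spondin, was at 178 against 155 CPM in WT and 171 against 204 CPM in KO, log2 ratios of 0.20 and -0.25. Ascl2, a stem cell transcription factor, stood at -1.01 and -0.64, Cdca7, a gene of proliferating cells, at -1.22 and -1.30, and Sox9 at 0.10 and 0.01. Smoc2 stood at 0.55 and -0.18.

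Many barrier and transport genes were lower than in the comparison cells. Of 22 mucin and glycosylation genes 16 were measured in each library and 9 of these were lower (8.42% and 9.42% over all genes), with 1 higher in WT and none in KO, and medians of -0.72 and -0.79. Muc13, a membrane mucin, stood at -1.06 and -0.66, and Fut9, a fucosyltransferase gene, at -2.11 and -1.04. Of 18 antimicrobial genes 16 and 15 were measured, 9 were lower in each library and 2 and 1 higher, with medians of -0.71 and -0.69; Lcn2 was higher in both, in KO through the 1 cell named above. Of 20 ion and water transport genes 14 and 13 were measured, with 8 and 6 lower and 1 higher in each, and medians of -0.71 and -0.51. Cftr, the chloride channel, stood at -1.98 and -1.27, and Kcne3, a potassium channel subunit, at -1.07 and -0.95. Of 10 measured genes of absorptive colonocytes 5 were lower and 2 higher in each library, with medians of -0.76 and -0.56, and the 2 measured enteroendocrine genes were lower in both. Set against the Notum cells with Pnliprp2, the medians of the mucin, antimicrobial, transport and absorptive lists were positive in both libraries. There 6 of 9 (WT) and 8 of 10 (KO) absorptive genes were higher and 1 and 0 lower, with medians of 1.18 and 0.86. Antimicrobial genes were higher for 8 and 4 of 15 and lower for 0 and 2, where 3.99% and 7.34% of all genes were higher.

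Interferon, metallothionein and keratin genes were looked at as well. Counts against the comparison cells stand beside 6.56% higher and 8.42% lower of all genes in WT, and 10.7% and 9.42% in KO. They are few, and no list was tested against these shares. Of 12 type I interferon genes 11 and 9 were measured, 5 and 4 were higher and 2 and 0 lower, with medians of 0.37 and 0.53. Ifit1, an antiviral RNA-binding protein gene, was at 530 against 212 CPM in WT and 181 against 112 CPM in KO, 1.32 and 0.70. Isg15, a ubiquitin-like protein gene, stood at 1.498 and 0.53, Rsad2 at 1.28 and 0.98 and Usp18 at 1.14 and 2.29. Of 12 metallothionein and metal transport genes 9 were measured in each library, with 2 higher and 1 lower in WT, 3 and 0 in KO, and medians of 0.19 and 0.34. Mt4 was at 701 against 437 CPM in WT and 1040 against 223 CPM in KO, 0.68 and 2.22, beside Mt3, while the common Mt1 stood at 0.19 and -0.48. Of 13 keratins 10 were measured in each library, with 1 higher and 2 lower in WT and 3 and 2 in KO, and medians of -0.18 and -0.05. Krt17, a keratin of injured and squamous epithelium, was at 1292 against 486 CPM in WT, 1.41, and 957 against 464 CPM in KO, 1.04, and Krt18, a simple epithelial keratin, stood at 0.53 and 0.31, short of 1.5-fold. Timp2, a protease inhibitor gene, stood at 1.10 and 1.45 and Plat, tissue plasminogen activator, at 0.65 and 1.46. Against the Notum cells with Pnliprp2, type I interferon genes were higher for 1 of 10 (WT) and 0 of 9 (KO). They were lower for 0 and 4, with medians of 0.09 and -0.54. Metallothionein and metal transport genes were higher for 1 of 8 and 0 of 9 and lower for 3 and 0. Keratins were higher for 1 of 10 and 3 of 9 and lower for 2 and 0. Of all genes 3.99% and 7.34% were higher there and 4.09% and 8.28% lower.

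Partners of pleiotrophin were measured as well. Ptprz1, a receptor phosphatase that binds it, stood at 0.41 and 0.11 and Sdc4, a heparan sulfate proteoglycan, at 0.25 and -0.10, neither past 1.5-fold. None of the 22 nuclear respiratory chain genes passed 1.5-fold in either library. Of the 12 goblet genes 7 were measured in WT, 2 higher and 3 lower, and 11 in KO, all lower. Of the 11 Paneth and deep crypt genes 10 and 8 were measured, with 4 and 1 higher and 4 lower in each. The shares over all genes were 6.56% higher and 8.42% lower in WT, and 10.7% and 9.42% in KO. The WT values of the goblet and Paneth lists rest largely on 1 cell of 40049 UMIs, with 15 Pnliprp2 and 3 Ptn UMIs. That cell held 76.4% of the Spink4, 93.1% of the Reg4, 68.1% of the Tff3 and 71.9% of the Itln1 UMIs of the 85 cells. Without it Reg4 was at 39.0, Spink4 at 355, Tff3 at 176 and Itln1 at 131 CPM. In KO the 12 goblet genes, Klk1 among them, summed to 701 CPM in the members and 8179 CPM in the comparison cells. The median cell held 684 and 849 CPM, and the highest comparison cell 251230 CPM. The comparison sum thus lay far above its median cell, so the KO goblet ratios do not describe a typical comparison cell.

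The Lyz1-high members were rich in genes of Paneth and deep crypt secretory cells. Their largest genes were Lyz1, at 58912 CPM in WT and 98937 CPM in KO, the alpha-defensin Defa24, at 71080 and 64861 CPM, and Spink4, a secreted inhibitor of goblet and deep crypt cells, at 21759 and 44405 CPM. The alpha-defensin genes are near-identical copies, so the level of any 1 of them is uncertain. Other antimicrobial and secretory genes stood beside them: Itln1, a lectin, at 10855 and 8355 CPM, Mmp7, the protease that activates defensins, at 8511 and 11797 CPM, and Clps, the colipase that aids pancreatic lipase, at 4122 and 5075 CPM. Of the naming genes, Ptn was at 65.7 and 16.0 CPM, Mt3 at 252 and 42.8 CPM, and Apcdd1 at 24.9 CPM and 0 CPM. In barcodes with Ptprc and no Epcam, Ptn was at 26.5 and 10.99 CPM. The part of free RNA in these levels was not tested. Pnliprp2, at 571 and 436 CPM, was the naming gene they shared with the Lyz1-low members by rule, and Pnliprp1 was at 125 and 102 CPM.

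They were deep cells, with medians of 29972 and 31250.5 UMIs, and other cells above 1% Lyz1 held Pnliprp2 too. Among 112 WT and 111 KO such cells outside the members, 59.8% and 60.4% had a Pnliprp2 UMI, at 137 and 57.9 CPM. Those cells had Lyz1 at 45097 and 43173 CPM, Defa24 at 28048 and 15501 CPM and Muc2, the goblet mucin, at 1612 and 1663 CPM, against 354 and 810 CPM in the Lyz1-high members. The Lyz1-high members therefore had more Pnliprp2 than most of the cells above that Lyz1 limit, as the rule required.

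The 159 members mix these cells, and the summed levels show it. Against all other non-cycling epithelial cells 181 of 8581 genes (2.11%) were at least 1.5-fold higher and 385 (4.49%) lower in both libraries. Of the 181 higher genes 127 were among the 264 of the Lyz1-low members (70.2% and 48.1%), and of the 385 lower genes 172 were among the 313 (44.7% and 55.0%). The 15 highest by the same ranking held 9 alpha-defensin genes, with Lyz1 at 11621 against 1654 CPM in WT and 30162 against 1738 CPM in KO, and Itln1 and Clps. Among the lowest were Mmp12 and Spp1, macrophage genes; 1179 WT and 913 KO comparison cells held at least 0.5% other-lineage UMIs, against 4 and 5 members.

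Between libraries, Lyz1-low members differed in many genes by 1.5-fold, but the KO level rests on 40 cells. Of 8851 genes with a mean of at least 10 CPM, 972 (11%) were higher and 890 (10.1%) lower in KO. In simulated data for this comparison, of 8782 genes, 10.9% of the genes left unchanged passed 1.5-fold. That share is not split by direction, so it cannot be set against the 11% or the 10.1%. How much of the called shares is sampling was not tested. In the comparison cells, 3425 in WT and 3395 in KO, 2.23% were higher and 3.28% lower. With so many more cells, their share is no like measure of a library difference. In the Lyz1-low members, for 64 of the 972 and 34 of the 890 genes more than 50% of the UMIs in the higher library came from 1 cell. Over all members 6.99% were higher and 10.7% lower in KO. With no replicate, these shares hold genotype, animal, library and the sampling of few cells together.

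Ptn was lower in KO, with a log2 ratio of -0.71 (-0.86 to -0.56), as it was in the comparison cells at -1.24 and in the empty droplets (271 and 112 CPM). Pnliprp2, which sets the class, stood at -0.05 (-0.16 to 0.06), Apcdd1 at -0.06 (-0.37 to 0.24), Pnliprp1 at 0.24 (0.08 to 0.40) and Mt3 at 0.38 (0.25 to 0.51), while in the comparison cells these genes stood at -0.52, -0.89, -0.13 and -0.38. The naming genes other than Ptn and Wdr49 were thus within 1.5-fold between libraries in the members. Gsk3b stood at 0.26 (0.03 to 0.49), Axin2 at -0.06 (-0.44 to 0.30), Ctnnb1 at -0.21 (-0.38 to -0.05) and Apc at 0.45 (0.11 to 0.79). None of these 4 passed 1.5-fold.

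Defence genes were among the lower in KO. Lcn2 stood at -1.46 (-1.66 to -1.27) and Ifit1 at -1.55, and of 9 measured type I interferon genes 5 were lower and none higher, with a median of -0.79 against 0.03 over all genes, of which 10.1% were lower. In the comparison cells 6 of 10 were lower and none higher, with a median of -0.72. Lcn2 was lower in the comparison cells as well, at -1.23. Cxcl5, a neutrophil-attracting chemokine, was at 158 CPM in WT and 23.2 CPM in KO, -2.77 (-3.54 to -2.08), and Kcnb2, a potassium channel gene, at 135 and 20.6 CPM, -2.72 (-3.55 to -1.99). Fetub was at 60.1 and 5.15 CPM, -3.55 (-5.45 to -2.15). Nav3 had 62 UMIs in 15 of the 85 WT cells and 0 in KO, a log2 ratio of at most -3.21 with a floor of 3 UMIs in the KO members.

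Some genes higher in KO were found in many cells and others in 1. F3, tissue factor, was at 55.5 CPM in WT and 198 CPM in KO, 1.84 (1.46 to 2.22), with a UMI in 32 of 85 and 26 of 40 cells, and stood at 0.93 in the comparison cells. Slc20a1, a phosphate transporter, was at 20.8 and 70.8 CPM, 1.77 (1.13 to 2.41), in 26 and 27 cells, and at 1.01 in the comparison cells. Iapp and Rgs6 rested largely on 1 cell: all 75 Iapp UMIs of the KO members and 49.2% of the Rgs6 UMIs came from 1 cell each. Reg4, at -3.93, reflected the WT cell that held 93.1% of its UMIs and stood at 1.43 in the comparison cells.

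**Figure D5:**
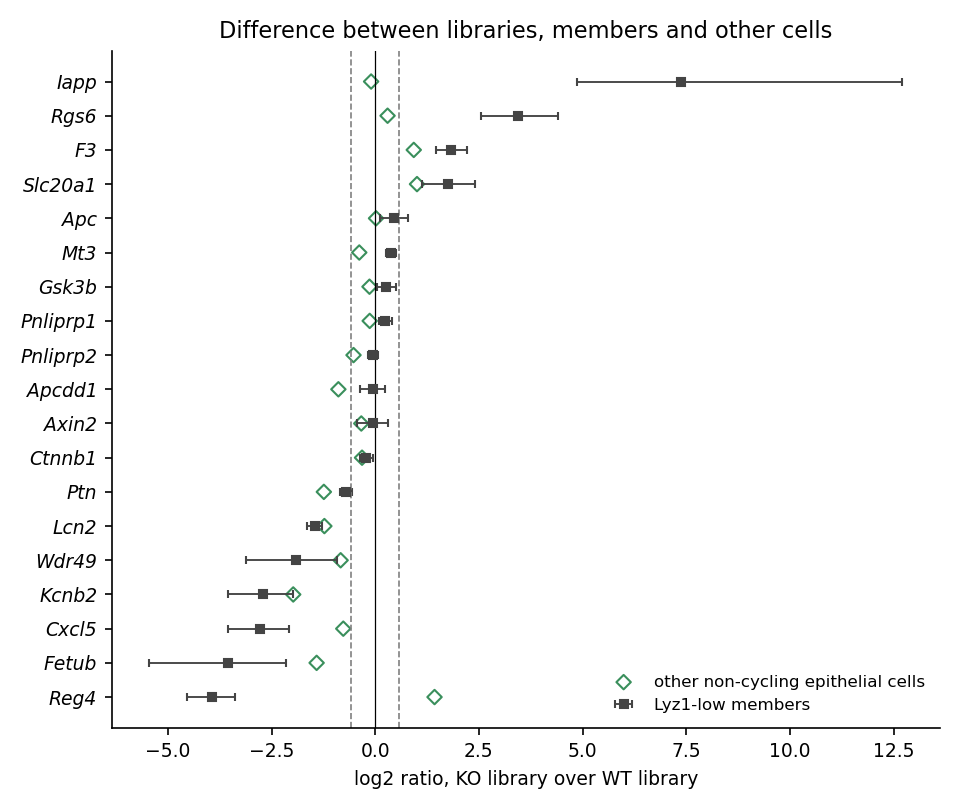
Log2 ratios of the KO over the WT library for named genes in Lyz1-low members (squares, exact 95% intervals of counting error) and in the comparison cells (open diamonds); dashed lines mark 1.5-fold. F3 and Slc20a1 lie to the right and Ptn, Lcn2, Cxcl5 and Kcnb2 to the left in both kinds of cell, while Reg4 and Iapp, each set by 1 cell, differ between them.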

How the data were processed

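Single-cell RNA was measured in 1 tumour library per genotype. The deposited matrices hold raw UMI counts per gene and barcode, made by the authors with Cell Ranger 4, per the file headers; the build was mm10 and Seurat is named with no role, per the submitters' processing notes. Barcodes were filtered and members chosen as stated in the report. UMI counts were summed over cells and divided by total UMIs (CPM). Log2 ratios carry exact conditional binomial intervals, levels exact Poisson intervals and shares exact Clopper-Pearson intervals, at 95%, over genes with a mean of at least 10 CPM. Python 3.11.15 with numpy 2.4.6, scipy 1.17.1, pandas 2.3.3 and matplotlib 3.10.9 was used, and the ratios were tested on simulated data. Named genes are fixed Wnt and naming genes, the 15 highest and 12 lowest genes with at least 50 UMIs and 30 CPM, 10 each way between libraries, and members of 46 gene lists. The same ranking was applied to the Lyz1-low members after the data were seen, as were their limits. The members and lists were chosen with earlier results of these data known. No doublet caller was run. Alternatives changed depth and mitochondrial limits, each part of the rule, scaling, the comparison cells, free RNA and the CPM minimum.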

Additional observations from a re-analysis of the deposited data

Results flagged for a closer look

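A set of 3 genes differed between libraries in how Lyz1-low members stood against the comparison cells, being higher in 1 library and lower in the other; the differences were not tested. Reg4, a secreted lectin, had a log2 ratio of 2.12 in WT and -3.24 in KO, so that KO minus WT was -5.364, with 93.1% of its WT UMIs in 1 cell. Iapp, the amyloid peptide hormone, had -3.87 in WT and 3.61 in KO, a difference of 7.484, with all 75 KO UMIs in 1 cell. Fetub, a plasma protease inhibitor, had 1.53 in WT and -0.61 in KO, a difference of -2.132, with 104 WT and 4 KO UMIs.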

How the results depend on the processing

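No paired analysis was possible because each genotype has 1 library, and for the same reason no replicate could be left out. Leaving out barcodes with 3 other-lineage UMIs was planned and not run, since it left 0 members in either library. Alternatives changed 1 choice at a time, except that thinning came with a limit of 2 Pnliprp2 UMIs and 1 alternative joined both added limits, and the cause of each change was not tested. For all members, the counts of genes higher and lower in both libraries, then higher and lower in KO, were 57, 148, 285 and 512 with at least 3 Pnliprp2 UMIs (198 and 116 members), 706, 753, 170 and 253 without the Notum and Cadps limits (441 and 363 members, share log2 -0.18) and 101, 166, 220 and 364 at a minimum of 30 CPM. Higher and lower counts were 330 and 591 against cells with no Pnliprp2 UMI and 395 and 701 for means of per-cell CPM. The lower count was 250 with thinned cells and 611 at a minimum of 5 CPM, where 961 were higher in KO. Leaving out Lyz1-high cells gave 282 higher genes and 940 higher in KO, and both added limits gave 972. Of the counts and shares 58 values stayed within their limits and 23 moved. Of the per-gene values, 1290 stayed, 567 moved and 15 reversed in Lyz1-low members, and 560, 345 and 19 in all members.

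With at least 3 Pnliprp2 UMIs the log2 ratio reversed for Muc3 in all WT members (0.20) and, in Lyz1-low members, for Pigr in KO (0.067), Tspan1 in KO and WT (0.12 and 0.10), Muc3 in KO and WT (0.091 and 0.40), Klk1 in WT (0.17), Dkk3 in WT (-0.028) and Muc13 in KO (0.28). Car1 reversed with an upper limit on UMIs per cell in WT (-2.51), at least 10 Pnliprp2 UMIs in KO (-1.83), no Notum and Cadps limits in KO and WT (-1.20 and -1.21), thinned cells (-1.24 and -2.73) and per-cell means in WT (-0.65). Without their limits Notum stood at 1.72 in KO and 1.48 in WT and Cadps at 0.73 in WT, and with thinned cells Mmp12 at 0.43 in WT. Without Lyz1-high cells, all members had Defa24 at -0.039 in KO and -0.85 in WT, Lyz1 at -0.37 and -0.43, Clps at -2.17 in KO, and KO over WT ratios of -2.31 for Spink4 and -0.14 for Lyz1. With both added limits these were -0.13 and -0.91 for Defa24, -0.37 and -0.33 for Lyz1, -2.34 for Clps, -2.42 for Spink4 and -0.16 for Lyz1.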
